A study of Mus musculus with 6 samples.

Results

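The chemokine system of the mouse lung, that is the chemokines, their receptors and the atypical receptors that clear them, was described in whole lung RNA 100 days after irradiation. The genes were taken by symbol from the 6 gene tables: every reference gene whose symbol starts with Ccl, Cxcl, Ccr, Cxcr or Ackr followed by a digit, together with Xcl1, Xcr1, Cx3cl1 and Cx3cr1. This gave 64 of 40842 reference genes, of which 39 are ligands, 19 are typical receptors, 4 are atypical receptors and 2 are pseudogenes. The 3 control libraries are lung of untreated wild-type (WT) female C57BL/6N mice at 100 days. The 3 irradiated libraries are lung of the same strain, sex and genotype 100 days after 9 MeV electrons, given as 1 dose of 20 Gy. The labels give neither the age of the mice nor the part of the body exposed, and whether each library is a mouse of its own is not stated. The p-values therefore speak only of library-to-library spread, part or all of which may be technical.

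Chemokines are small secreted proteins that bind glycosaminoglycans on vessel walls and matrix, and leukocytes that carry the matching G protein-coupled receptor migrate towards them. CXC chemokines that bind Cxcr2 attract neutrophils, ligands of Ccr2 attract monocytes, and other sets steer T cells, B cells and dendritic cells into tissue, lymph vessels and lymph nodes. Atypical receptors bind chemokines without the usual G protein signal and take them up, which lowers or shapes their gradients.

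Levels are given in FPKM (fragments per kilobase of transcript, scaled to library size, as deposited by the authors), a scale per length on which genes can be compared. Values of 3 libraries stand in the order of their replicate numbers, controls first. Each log2 change is the irradiated minus the control mean of log2(FPKM + 1) and stands with its standard error. Adding 1 makes the change of a weakly expressed gene look smaller than its ratio of means. A gene was tested with limma where its mean over the 6 libraries was at least 1 FPKM, and it was called where the p-value adjusted over all 13908 genes tested was under 0.05. Of the 64 genes, 40 were tested and 24 lay below that level.

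In irradiated lung 1 of the 40 tested genes passed, the atypical receptor Ackr4, which fell. Over all genes tested 0.18% passed, 0.0647% higher and 0.115% lower. In 8 of the 40 (20%) all irradiated libraries lay above all controls: Ccl6, Ccl9, Ccl17, Ccl20, Cxcl10, Ccr2, Cxcr1 and Ackr3. The share over all genes tested was 9.91%. Ccl20 and Cxcr1, with control means of 0.193 and 0.361 FPKM, reached the level tested only through their irradiated libraries. In 5 of the 40 (12.5%) all irradiated libraries lay below all controls, namely Ackr4, Ccl21a, Ccl25, Ccl3 and Ccl5, against 14.6% of all genes tested. Ackr4, Ccl25 and Ccl3, with irradiated means of 0.799, 0.932 and 0.793 FPKM, reached the level tested only through their controls. At an unadjusted limma p under 0.05 there were 11 higher genes (27.5%) and 5 lower genes (12.5%), against 7.41% and 10.3% of all genes tested. The higher genes again include Ccl20 and Cxcr1, and the lower ones Ackr4 and Ccl3. The median log2 change over the 40 was 0.27, with 26 positive and 14 negative changes, and over all genes tested it was −0.03. The typical receptors had 11 positive changes among 12 tested and a median of 0.38, while the ligands had 13 positive and 12 negative changes and a median of 0.03.

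The depth implied by the deposited coverage was 5.11 to 10.4 Gb of aligned sequence per library, with irradiated 2 the deepest. Irradiated 2 also had the highest summed level of 5 red cell genes (6251 FPKM, against 1346 to 1707 FPKM in the other libraries) and of 11 neutrophil genes (4846 FPKM, against 132 to 1463 FPKM). Lung markers were high in every library, with Sftpc of alveolar type 2 cells between 8741 and 16830 FPKM. Of the 40 tested genes, 15 were lowest in irradiated 2 and 12 were highest in irradiated 1, so the irradiated libraries differed among themselves. Over all genes tested 36.9% were lowest in irradiated 2 and 16.9% were highest in irradiated 1. Because whole tissue was sequenced, more cells of a type and more RNA per cell cannot be told apart.

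**Figure D1:**
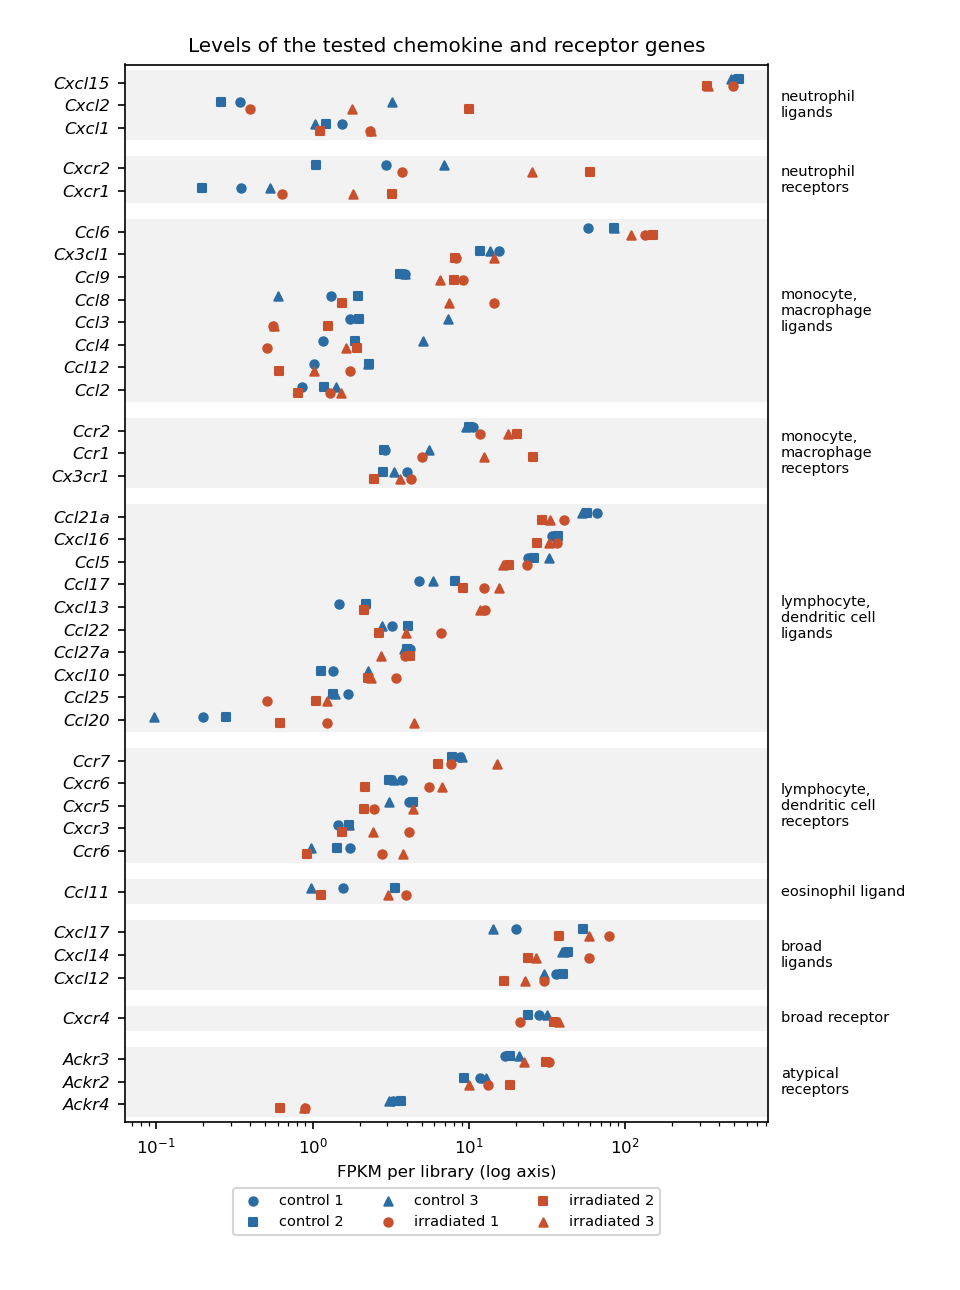
Levels of tested chemokine and receptor genes. The x axis is FPKM on a log scale, each point is a library (blue control, orange irradiated, shape the replicate number), and genes are grouped by role. Cxcl15 and Ccl6 lie above 50 FPKM in every library, and the 3 irradiated points of Ackr4 lie apart from and below its 3 control points.

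The system was dominated by few genes. Cxcl15 and Ccl6 had a mean above 100 FPKM over the 6 libraries, 12 genes had a mean from 10 to 100 FPKM, 26 from 1 to 10 FPKM, 15 from 0.1 to 1 FPKM, and 9 were under 0.1 FPKM. Cxcl15, also called lungkine, a neutrophil chemoattractant of lung epithelium, made up 50.2% to 53.6% of the summed level of all 64 genes in the controls and 36.8% to 44.2% in the irradiated libraries. Without Cxcl15 the summed level was 435 to 492 FPKM in the controls and 559 to 618 FPKM in the irradiated libraries, and the groups did not overlap. The largest rises in group mean were those of Ccl6 (76.0 to 131 FPKM), Cxcl17 (29.4 to 58.3 FPKM) and Cxcr2 (3.65 to 29.5 FPKM). Cxcl15 itself had the largest fall in FPKM (503 to 389 FPKM, with groups that overlapped), and among the other genes Ccl21a did (58.7 to 34.45 FPKM). The sum thus reflects few genes and not the system as a whole.

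Ligands of Cxcr2, the CXC chemokines that attract neutrophils, lie in a cluster on chromosome 5 together with Cxcl15 (GRCm39, from Cxcl5 at 90907157 to 90909484 to Cxcl2 at 91051758 to 91053797, as the files give them). Cxcl15 was at 504, 533 and 473 FPKM in the controls and at 490, 336 and 341 FPKM in the irradiated libraries. Irradiated 1 lay among the controls, while irradiated 2 and 3 lay below them (log2 change −0.39 ± 0.17, adjusted p = 0.289). Among 5 alveolar type 2 cell markers, Sftpc, Lamp3 and Slc34a2 had all irradiated libraries below the controls, while Sftpa1 (log2 change −0.02) and Lyz1 overlapped. The summed level was 16340 to 18570 FPKM in the controls and 10230 to 11320 FPKM in the irradiated libraries, nearly all of it Sftpc, and without Sftpc the sums overlapped (1662 to 1737 against 1418 to 1732 FPKM). Their part in the level of Cxcl15 was not tested.

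The other neutrophil ligands were at low levels and did not share a pattern. Cxcl5, a chemokine known from alveolar type 2 cells, was below the level tested, at 0.174, 0.224 and 0.0570 FPKM in the controls and at 0.658, 0.90 and 0.443 FPKM in the irradiated libraries. All 3 irradiated libraries lay above all controls, with a ratio of group means of 4.40. Of the 15 chemokine and receptor genes between 0.1 and 1 FPKM, 2 (13.3%) had all irradiated libraries above all controls, Cxcl5 and Cxcl9, against 10.2% of all genes at that level, and none had them all below (0 of 15, against 8.01%). Cxcl1, the chemokine also called KC, was at 1.54, 1.21 and 1.04 FPKM in the controls and at 2.34, 1.11 and 2.35 FPKM in the irradiated libraries, so that irradiated 1 and 3 lay above the controls and irradiated 2 among them (log2 change 0.35 ± 0.21, adjusted p = 0.439). Cxcl2, the chemokine also called MIP-2, was at 0.342, 0.261 and 3.22 FPKM in the controls and at 0.399, 9.96 and 1.80 FPKM in the irradiated libraries (0.86 ± 0.85, adjusted p = 0.639). Its highest values were those of irradiated 2 and control 3, the libraries with the highest neutrophil marker sum in their group. Cxcl3 stayed under 1 FPKM, at 0.309, 0.0817 and 0.159 FPKM against 0.523, 0.402 and 0.139 FPKM, and its groups overlapped.

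Cxcl1, Cxcl2 and Cxcl3 share a promoter element, and their sequences are shown because these neighbours with the same element differed in which libraries they were high in. Promoter windows of RefSeq genes (GRCm38.p6, 250 bases before to 50 after the start) were at hand for 47 of the 64 genes. Each window was searched on both strands for a κB-like motif (GGGA, any 2 bases, TTCC), an interferon response element (GAAA, any 2 bases, GAAA) and a STAT element (TTC, any 3 bases, GAA). The κB-like motif was found in the windows of 6 of the 47 genes (12.8%), Ccl1, Ccr3, Cxcl1, Cxcl2, Cxcl3 and Cxcl10, and in those of 1.63% of 27025 genes. The 220 bases before the start are given 5′ to 3′ on the strand of the gene for Cxcl1 (chr5:90891025-90891244, plus strand), Cxcl2 (chr5:90903679-90903898, plus strand), Cxcl3 (chr5:90785881-90786100, plus strand) and Cxcl10 (chr5:92348890-92349109, minus strand), in GRCm38.p6. Capitals mark the motif matches.
Cxcl1: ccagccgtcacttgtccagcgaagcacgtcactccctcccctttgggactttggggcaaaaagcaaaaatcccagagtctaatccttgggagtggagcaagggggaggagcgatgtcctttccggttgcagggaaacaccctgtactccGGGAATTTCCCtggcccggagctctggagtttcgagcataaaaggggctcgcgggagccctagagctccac
Cxcl2: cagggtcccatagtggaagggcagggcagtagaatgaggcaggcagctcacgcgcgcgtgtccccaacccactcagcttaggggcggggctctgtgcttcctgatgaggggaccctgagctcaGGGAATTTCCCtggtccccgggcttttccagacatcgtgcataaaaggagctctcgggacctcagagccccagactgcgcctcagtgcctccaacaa
Cxcl3: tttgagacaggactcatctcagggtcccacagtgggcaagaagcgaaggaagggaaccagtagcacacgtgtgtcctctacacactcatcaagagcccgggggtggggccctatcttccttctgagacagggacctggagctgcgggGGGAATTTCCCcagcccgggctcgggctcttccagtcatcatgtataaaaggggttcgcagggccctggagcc
Cxcl10: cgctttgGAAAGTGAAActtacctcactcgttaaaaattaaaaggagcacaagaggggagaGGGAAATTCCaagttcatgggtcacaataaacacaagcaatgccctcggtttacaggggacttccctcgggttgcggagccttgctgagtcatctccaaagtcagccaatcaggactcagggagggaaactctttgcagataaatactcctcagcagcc
In Cxcl1, Cxcl2 and Cxcl3 the match lies 61 to 71, 87 to 97 and 63 to 73 bases before the start, and its letters are the same in these neighbouring genes, where a forward and a reverse match overlap. Cxcl10 has a κB-like match at 150 to 159 bases and an interferon element match at 204 to 213 bases. The interferon element was found in 3 of the 47 genes (6.38%) and in 3.99% of all genes, and the STAT element in 4 of the 47 (8.51%) and in 9.55% of all genes. A match is a run of letters and not a measured binding site.

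The receptors of these ligands were highest in irradiated 2 and 3. Cxcr2, the main neutrophil receptor for CXC chemokines (chromosome 1, 74193153 to 74200405), was at 2.96, 1.05 and 6.95 FPKM in the controls and at 3.73, 59.3 and 25.4 FPKM in the irradiated libraries. Irradiated 1 was among the controls, whereas irradiated 2 and 3 were far above. The log2 change was 2.29 ± 1.04, the largest among the 40 genes on this scale, and it did not pass (adjusted p = 0.328). Its neighbour Cxcr1 was at 0.349, 0.195 and 0.538 FPKM against 0.641, 3.20 and 1.82 FPKM, and its groups did not overlap (0.99 ± 0.33, adjusted p = 0.208). With a control mean of 0.361 FPKM, Cxcr1 reached the level tested only through its irradiated libraries. The neutrophil marker sum followed the same order of libraries within each group, with 170, 132 and 527 FPKM in control 1 to 3 and 284, 4846 and 1463 FPKM in the irradiated libraries. S100a8 and S100a9 made up most of this sum. Without both it was 34.6, 69.4 and 96.2 FPKM against 111, 882 and 288 FPKM, again highest in irradiated 2 and 3 but with control 2 above control 1. Most of the 69.4 FPKM in control 2 was Ltf, at 52.9 FPKM there and at 3.27 and 6.0 FPKM in control 1 and 3. On the log2 scale all 11 neutrophil markers had positive changes, though the mean FPKM of Ltf was lower in irradiated lung (20.7 against 15.1 FPKM). In 2 of the 11, Mmp8 and Cd177, all irradiated libraries lay above all controls, against 9.91% of all genes tested. Cd177 had another order, at 1.76, 4.19 and 1.68 FPKM against 33.8, 16.2 and 40.9 FPKM, with irradiated 2 the lowest of its group. Ly6g, which defines neutrophils, was at 0.50, 0.122 and 0.660 FPKM against 0.646, 11.1 and 2.42 FPKM. The part of neutrophil number in the level of the receptors was not tested.

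**Figure D2:**
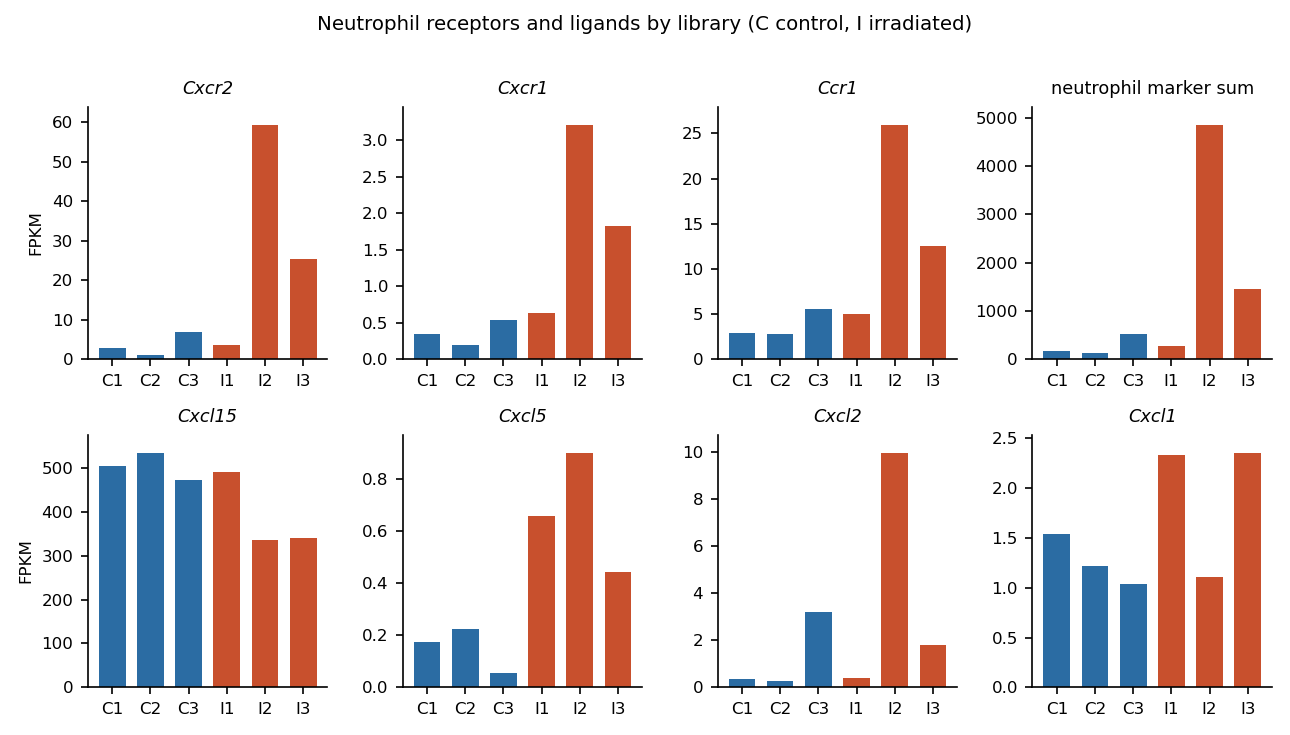
FPKM of Cxcr2, Cxcr1, Ccr1, Cxcl15, Cxcl5, Cxcl2 and Cxcl1, and the summed FPKM of 11 neutrophil markers, in each library (C1 to C3 control, I1 to I3 irradiated, 1 bar per library, axes from 0). The receptors and the marker sum are highest in I2 and I3, Cxcl5 is higher in all 3 irradiated libraries, and Cxcl15 is lower in I2 and I3 alone.

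Among the chemokines of monocytes and macrophages, Ccl9 and Ccl6 were higher in every irradiated library while the classical Ccr2 ligands were not. Ccl9, a ligand of Ccr1 also called MIP-1γ, was at 3.89, 3.62 and 3.89 FPKM in the controls and at 9.18, 8.04 and 6.55 FPKM in the irradiated libraries. The ratio of group means was 2.09, the log2 change was 0.88 ± 0.13, and with an adjusted p of 0.0615 it ranked second to Ackr4 among the 40 genes. Ccl6, a related chemokine that macrophages express, was at 58.1, 84.4 and 85.4 FPKM against 134, 150.1 and 109 FPKM (0.79 ± 0.19, adjusted p = 0.119). The 2 genes lie next to each other on chromosome 11, Ccl9 at 83463743 to 83469462 and Ccl6 at 83478712 to 83483913. All 8 interstitial macrophage markers had positive changes, with a median of 0.45. Lyve1, Mrc1 and Gpnmb lay above all controls in every irradiated library, and C1qa, C1qb, C1qc, Folr2 and Cd163 overlapped. The sum of the 8 was at 154 to 188 FPKM in the controls and 293 to 317 FPKM in the irradiated libraries. Without Lyve1 it was at 65.7, 81.5 and 83.5 FPKM against 153, 74.8 and 103 FPKM, with irradiated 2 among the controls. The sums of 9 monocyte markers (248 to 336 against 417 to 547 FPKM) and 8 alveolar macrophage markers (249 to 339 against 333 to 564 FPKM) both include Chil3, and without it both overlapped (106 to 160 against 130 to 191 FPKM, and 122 to 165 against 100.1 to 147 FPKM). Of the alveolar macrophage markers 5 had negative changes, and Marco, Krt79 and Fabp1 lay below all controls in every irradiated library. The part of these cells in the levels of Ccl6 and Ccl9 was not tested.

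Neighbouring genes on chromosome 11 were lower or overlapped. Ccl3, a ligand of Ccr1 also called MIP-1α (83538669 to 83540204), was at 1.74, 1.98 and 7.31 FPKM in the controls and at 0.555, 1.26 and 0.567 FPKM in the irradiated libraries (−1.21 ± 0.44, adjusted p = 0.232). The irradiated libraries lay below the controls, and control 3 was the highest by far. Ccl4, MIP-1β, was also highest in control 3, at 1.17, 1.86 and 5.12 FPKM against 0.511, 1.93 and 1.63 FPKM, and its groups overlapped (−0.57 ± 0.43, adjusted p = 0.530). Natural killer cells are a known source of both. All 7 tested natural killer markers had irradiated libraries below all controls, with a sum of 47.9 to 59.3 FPKM against 14.4 to 27.0 FPKM, and their part in these levels was not tested.

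The ligands of Ccr2 were low and overlapped between groups. Ccl2, MCP-1, was at 1.16 ± 0.285 FPKM in the controls and 1.21 ± 0.367 FPKM in the irradiated libraries (SD, n = 3 each), with a log2 change of 0.03 and a 95% interval from −0.41 to 0.46. Ccl12, the other mouse counterpart of human MCP-1, was at 1.86 ± 0.731 against 1.13 ± 0.572 FPKM (−0.43 ± 0.27, adjusted p = 0.450). Ccl7 was below the level tested, at 0.645, 1.41 and 1.00 FPKM against 1.16, 0.309 and 0.539 FPKM. Ccl8, a member of the same MCP group that in the mouse signals through Ccr8, behaved differently. It was at 1.31, 1.95 and 0.60 FPKM in the controls and at 14.6, 1.54 and 7.49 FPKM in the irradiated libraries, so that irradiated 1 and 3 were far above the controls and irradiated 2 was among them (1.65 ± 0.65, adjusted p = 0.264). Cx3cl1, the membrane-bound chemokine fractalkine, was at 15.5, 11.8 and 13.7 FPKM against 8.32, 8.17 and 14.6 FPKM (−0.41 ± 0.22, adjusted p = 0.386).

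Receptors of monocytes and macrophages were led by Ccr1 and Ccr2, both with higher group means in irradiated lung. Ccr2, which takes monocytes out of the bone marrow, was at 10.7, 10.1 and 9.63 FPKM in the controls and at 11.9, 20.2 and 17.7 FPKM in the irradiated libraries, and the groups did not overlap (0.63 ± 0.18, adjusted p = 0.166). Ccr1, which neutrophils share with monocytes, was at 2.90, 2.86 and 5.58 FPKM against 5.05, 25.9 and 12.6 FPKM (1.49 ± 0.54, adjusted p = 0.236). Its order of libraries was close to that of Cxcr2, with irradiated 2 highest, irradiated 3 next and control 3 the highest control. Cx3cr1, the receptor of Cx3cl1 and a marker of patrolling monocytes, had a log2 change of 0.02 with a 95% interval from −0.43 to 0.46. Ccr1l1, a Ccr1-like gene, was nearly absent, at 0, 0 and 0.0321 FPKM against 0.382, 0.00335 and 0.0545 FPKM.

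**Figure D3:**
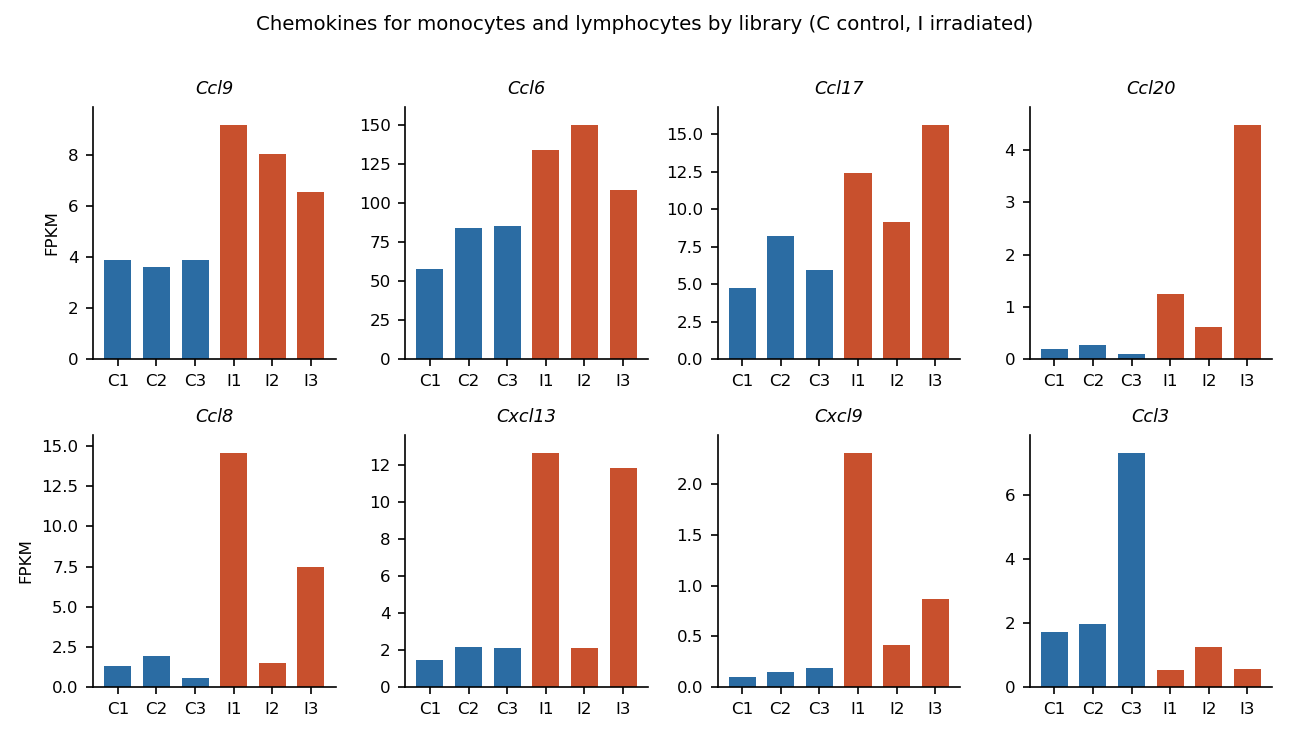
FPKM of Ccl9, Ccl6, Ccl17, Ccl20, Ccl8, Cxcl13, Cxcl9 and Ccl3 in each library (C1 to C3 control, I1 to I3 irradiated, 1 bar per library, axes from 0). Ccl9, Ccl6, Ccl17, Ccl20 and Cxcl9 are higher in all 3 irradiated libraries, Ccl8 and Cxcl13 are high in I1 and I3 alone, and Ccl3 is highest in C3.

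Ligands of lymphocytes and dendritic cells lay in both directions, with 5 positive and 5 negative changes among 10 tested and a median of 0.06. Among the higher ones, Ccl17, a ligand of Ccr4 made by dendritic cells, was at 4.77, 8.20 and 5.93 FPKM in the controls and at 12.5, 9.18 and 15.6 FPKM in the irradiated libraries (0.88 ± 0.23, adjusted p = 0.143). Ccl22, which binds the same receptor and lies near Ccl17 on chromosome 8, overlapped between groups, at 3.21, 4.10 and 2.80 FPKM against 6.67, 2.66 and 3.95 FPKM (0.26 ± 0.27). Their receptor Ccr4 was below the level tested, at 0.339, 0.210 and 0.373 FPKM against 0.854, 0.366 and 1.24 FPKM.

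Ccl20, which attracts Ccr6-bearing cells such as T cells that make IL-17, was at 0.20, 0.282 and 0.0969 FPKM in the controls and at 1.24, 0.623 and 4.47 FPKM in the irradiated libraries (1.19 ± 0.43, adjusted p = 0.229). Irradiated 3 held the highest value, and the groups did not overlap. The ratio of group means was 11.0, and without irradiated 3 it was 4.84. With a control mean of 0.193 FPKM, Ccl20 reached the level tested only through its irradiated libraries, and without irradiated 3 it lies below that level. Its only receptor among the typical ones, Ccr6, was at 1.74, 1.43 and 0.973 FPKM against 2.77, 0.926 and 3.79 FPKM, above the controls in irradiated 1 and 3 and below them in irradiated 2 (0.47 ± 0.34, adjusted p = 0.509). Summed markers of γδ T cells that make IL-17 (7 genes) were at 5.03 to 5.72 FPKM in the controls and at 16.6, 9.99 and 13.4 FPKM in the irradiated libraries, and those of B cells, which also carry Ccr6, at 78.3 to 109 and 48.5 to 97.4 FPKM. Their part in the level of Ccr6 was not tested.

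Of the chemokines that interferon-γ induces, Cxcl10 and Cxcl9 were higher in every irradiated library and Cxcl11 was almost absent. Cxcl10 was at 1.35, 1.14 and 2.26 FPKM in the controls and at 3.44, 2.28 and 2.38 FPKM in the irradiated libraries (0.53 ± 0.21, adjusted p = 0.253). Irradiated 2 exceeded control 3 by a small margin. Cxcl10 overlaps Art3 on the opposite strand (log2 change of Art3 −0.37 ± 0.25), and since no strand setting is stated the reads of such a pair cannot be separated. Cxcl9 was below the level tested, at 0.106, 0.152 and 0.190 FPKM against 2.30, 0.419 and 0.870 FPKM, with a ratio of group means of 8.02. Cxcl11 did not exceed 0.0343 FPKM in any library. Their shared receptor Cxcr3, found on activated T and natural killer cells, was at 1.46, 1.71 and 1.70 FPKM against 4.13, 1.54 and 2.44 FPKM (0.44 ± 0.25, adjusted p = 0.404).

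Cxcl13, which draws B cells into lymphoid follicles, repeated the pattern of Ccl8. It was at 1.47, 2.20 and 2.13 FPKM in the controls and at 12.6, 2.12 and 11.8 FPKM in the irradiated libraries (1.49 ± 0.56, adjusted p = 0.252). Its receptor Cxcr5 was at 4.12, 4.39 and 3.07 FPKM against 2.46, 2.13 and 4.41 FPKM (−0.31 ± 0.23), below all controls in irradiated 1 and 2 and just above them in irradiated 3. Cxcr5 overlaps Bcl9l on the opposite strand. In all, 8 of the 40 genes lay above all controls in irradiated 1 and 3 but not in irradiated 2, against 7.57% of all genes tested. They include Ccl8, Cxcl13, Cxcl17, Ccr6 and Cxcr3. Another 3 lay above the controls in irradiated 2 and 3 but not in irradiated 1, Cxcr2, Ccr1 and Cxcr4, against 4.52% of all genes. Cardiac muscle and adipose markers were also higher in irradiated 1 and 3 (147 and 200.1 FPKM for cardiac, 107 and 75.2 FPKM for adipose) than in irradiated 2 (11.8 and 5.60 FPKM). They were highest in control 2 (425 and 312 FPKM), where Cxcl13 and Ccl8 were at 2.20 and 1.95 FPKM, the highest control values of these genes. Any part of heart or fat tissue in the levels of Cxcl13 and Ccl8 was not tested.

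The lower ligands of this set were Ccl21a, Ccl5 and Ccl25. Ccl21a, made by lymphatic endothelium to guide Ccr7-bearing dendritic and T cells into lymph vessels (chromosome 4, 42772860 to 42773991), was at 66.0, 56.8 and 53.2 FPKM in the controls and at 40.7, 29.5 and 33.2 FPKM in the irradiated libraries. The groups did not overlap and the spread within each was small (−0.76 ± 0.14), but with an adjusted p of 0.0793 it did not pass. Ccl21a has near-identical copies that could share its reads: Ccl21b did not exceed 0.00406 FPKM, and Ccl21d was at 0.280, 0.0220 and 0.0172 FPKM against 0, 0.0484 and 0.0132 FPKM. All 6 genes listed here as markers of lymphatic endothelium overlapped between groups, and 2 of them, Prox1 and Reln, had means under 1 FPKM. Lyve1, also known from lymphatic endothelium, was listed with the macrophage markers and is not among the 6. It was at 87.8, 72.3 and 105 FPKM against 165, 218 and 190 FPKM, above all controls in every irradiated library. The sum of the 6, most of it Pdpn, was at 77.7 to 83.4 FPKM in the controls and 69.8 to 85.4 FPKM in the irradiated libraries. Without Pdpn it was at 18.1 to 24.3 and 16.8 to 25.0 FPKM. Flt4, a receptor of lymphatic growth factors, had a log2 change of 0.03. Any part of lymphatic cell number in the level of Ccl21a was not tested. Ccr7 was at 8.76, 7.79 and 8.99 FPKM against 7.73, 6.39 and 15.2 FPKM (0.10 ± 0.28), with irradiated 3 alone above the controls. Ccl19, its other ligand, was below the level tested, at 0.343, 0.301 and 0.698 FPKM against 0.488, 0.191 and 0.885 FPKM.

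Ccl5, which cytotoxic lymphocytes make and which binds Ccr1, was at 23.8, 26.2 and 32.6 FPKM in the controls and at 23.4, 18.1 and 16.5 FPKM in the irradiated libraries (−0.49 ± 0.16, adjusted p = 0.205). Irradiated 1 and control 1 were nearly equal. Natural killer markers, given above, were lower in the irradiated libraries. The sum of T cell markers was 41.2 to 47.7 FPKM in the controls and 37.2 to 73.3 FPKM in the irradiated libraries. Any part of these cells in the level of Ccl5 was not tested. Ccl25, known for attracting thymocytes and gut T cells through Ccr9, was at 1.69, 1.35 and 1.40 FPKM against 0.511, 1.05 and 1.24 FPKM (−0.38 ± 0.18, adjusted p = 0.337), and Ccr9 was at 0.319, 0.310 and 0.212 FPKM against 0.412, 0.131 and 0.312 FPKM.

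The rest of the lymphocyte and dendritic cell genes overlapped between groups. Cxcl16, a membrane-bound ligand of Cxcr6 that overlaps Zmynd15 on the opposite strand, was at 35.9 ± 1.59 against 32.2 ± 4.61 FPKM (SD, n = 3 each), and its 95% interval of the log2 change ran from −0.44 to 0.12. Cxcr6, on tissue-resident T cells, was at 3.75, 3.09 and 3.30 FPKM against 5.58, 2.17 and 6.70 FPKM (0.31 ± 0.32), and it overlaps Fyco1 on the opposite strand. Ccl27a was at 4.02 ± 0.194 against 3.62 ± 0.761 FPKM and overlaps the more abundant Il11ra1. The genes that follow had means under 1 FPKM and were not tested. Xcl1, a product of natural killer and CD8 T cells, was at 0.357, 0.794 and 0.255 FPKM against 0.227, 0.415 and 0.0862 FPKM. Its receptor Xcr1, on cross-presenting dendritic cells, was at 0.895, 0.912 and 0.575 FPKM against 1.28, 0.596 and 0.636 FPKM. The groups of both overlapped. Ccl28, an epithelial chemokine that binds Ccr10, was at 0.0317, 0.737 and 0.0720 FPKM against 0.125, 0.0391 and 0.588 FPKM. Ccr8 was at 0.241, 0.324 and 0.879 FPKM against 0.611, 0.188 and 0.551 FPKM, and Ccr10 was at 0.673, 0.532 and 0.194 FPKM against 0.460, 0.267 and 0.351 FPKM. None of these showed groups that were apart. The pseudogene Ccl19-ps1 was at 0, 0.325 and 0.176 FPKM against 0.129, 0.0773 and 0.127 FPKM.

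Chemokines of eosinophils and the broadly acting ligands overlapped between groups as well. Ccl11, eotaxin, was at 1.56, 3.39 and 0.984 FPKM in the controls and at 3.96, 1.13 and 3.04 FPKM in the irradiated libraries (0.31 ± 0.40). Ccl24 was at 0.227, 0.332 and 0.318 FPKM against 0.362, 0.0165 and 0.415 FPKM, Ccr3 did not exceed 0.113 FPKM, and Ccl26 was listed at 0 in all 6 libraries. Cxcl12, the stromal ligand of Cxcr4, was at 36.3, 39.8 and 30.1 FPKM against 30.5, 16.8 and 22.9 FPKM (−0.61 ± 0.21, adjusted p = 0.222). Irradiated 1 lay just above control 3, and irradiated 2 and 3 lay below all controls. Cxcr4, on most leukocytes, was at 28.2, 23.9 and 31.5 FPKM against 21.3, 35.0 and 37.6 FPKM (0.13 ± 0.22). Cxcl14, a chemokine of stroma and epithelium, was at 42.7, 43.0 and 39.4 FPKM against 58.3, 24.0 and 27.1 FPKM (−0.30 ± 0.31). Irradiated 1 was its highest library and irradiated 2 and 3 its lowest. Cxcl17, a mucosal chemokine of airway epithelium, was at 20.0, 53.8 and 14.3 FPKM against 78.3, 37.6 and 58.9 FPKM (1.13 ± 0.51, adjusted p = 0.315). Its 3 highest libraries, irradiated 1, irradiated 3 and control 2, were also the 3 highest for 4 of 6 airway markers, Bpifa1, Muc5b, Foxj1 and Scgb3a2. The other airway markers, Scgb1a1 and Cyp2f2, had another order and were lowest in irradiated 1, with Scgb1a1 at 44200, 37660 and 30980 FPKM against 16270, 21330 and 26660 FPKM. The part of airway tissue in the difference was not tested. The genes under 0.1 FPKM were Ccl1, Ccl26, Ccl27b, Ccl21b, Ccl21d, Cxcl11, Ccr3, Ccr1l1 and Ccl19-ps2.

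**Figure D4:**
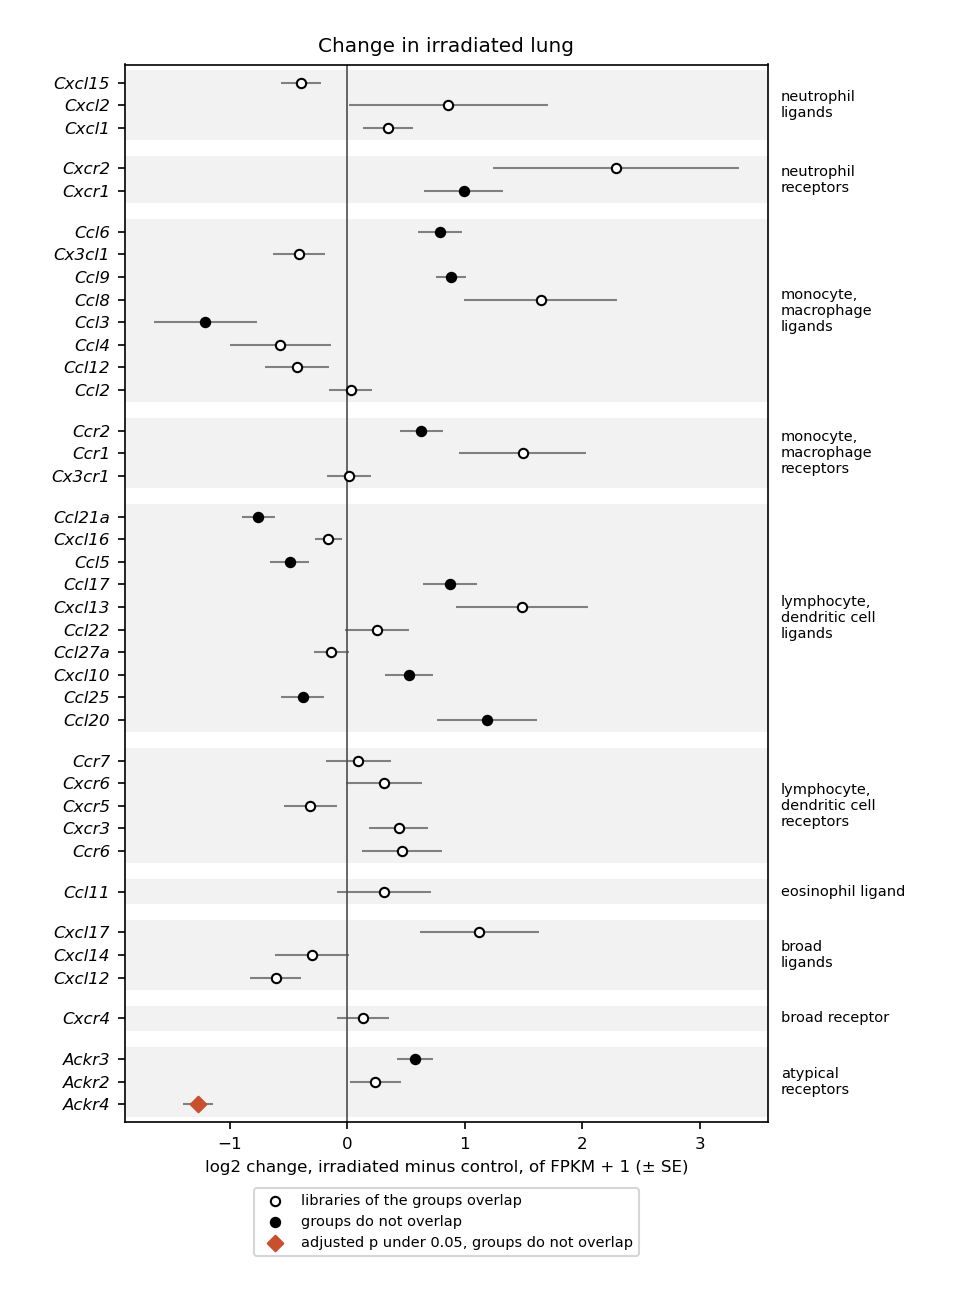
Log2 change on the scale of FPKM + 1, irradiated minus control, of tested chemokine and receptor genes (points, with the standard error from limma as bars), grouped by role. Filled points are genes whose groups do not overlap, 13 in all, and the orange diamond is Ackr4, the gene that passed an adjusted p of 0.05.

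The atypical receptors gave the call and went in different directions. Ackr4, which takes up Ccl19, Ccl20, Ccl21 and Ccl25 (chromosome 9, 103974881 to 104003842), was at 3.27, 3.66 and 3.08 FPKM in the controls and at 0.889, 0.621 and 0.888 FPKM in the irradiated libraries. The mean was 4.17-fold lower in irradiated lung, the lowest control was more than 3 times the highest irradiated library, and the spread within both groups was small. On the log2(FPKM + 1) scale it fell by 1.27 ± 0.13 (limma, adjusted p = 0.0306), and it ranked 13th of the 13908 genes by p. Of the ligands it clears, Ccl21a and Ccl25 were lower, Ccl20 was higher and Ccl19 overlapped, as given above. Ackr4 overlaps Acad11 on the opposite strand, which was at 7.32 ± 0.786 against 8.12 ± 1.45 FPKM (SD, n = 3 each), and the same limit on strand holds for this pair. The size of the change kept between −1.31 and −1.19 under the alternatives with the same pseudocount, but the call ended without control 1 (adjusted p = 0.203), control 2 (0.142), control 3 (0.148) or irradiated 2 (0.0828), each of which leaves fewer libraries.

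Ackr3, a scavenger of Cxcl12 in endothelium and stroma (chromosome 1, 90131702 to 90143446), was at 16.96, 18.4 and 21.0 FPKM in the controls and at 32.4, 31.2 and 22.7 FPKM in the irradiated libraries (0.58 ± 0.15, adjusted p = 0.144). The groups did not overlap, with irradiated 3 close to control 3, and Cxcl12 itself was lower in the group means. Ackr2, a scavenger of inflammatory CC chemokines, was at 11.7, 9.33 and 12.9 FPKM against 13.2, 18.4 and 9.96 FPKM (0.24 ± 0.22, adjusted p = 0.610). Ackr1, the Duffy antigen receptor of venules and red cells, which overlaps Cadm3 on the same strand, was below the level tested, at 0.320, 0.330 and 0.0804 FPKM against 1.30, 0.279 and 1.30 FPKM. It was high in irradiated 1 and 3 and within the controls in irradiated 2. Red cell transcripts were highest in irradiated 2. Summed markers of venous endothelium were at 140.1 to 163 FPKM in the controls and at 187, 157 and 138 FPKM in the irradiated libraries. Any part of red cells or venules in the level of Ackr1 was not tested.

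**Figure D5:**
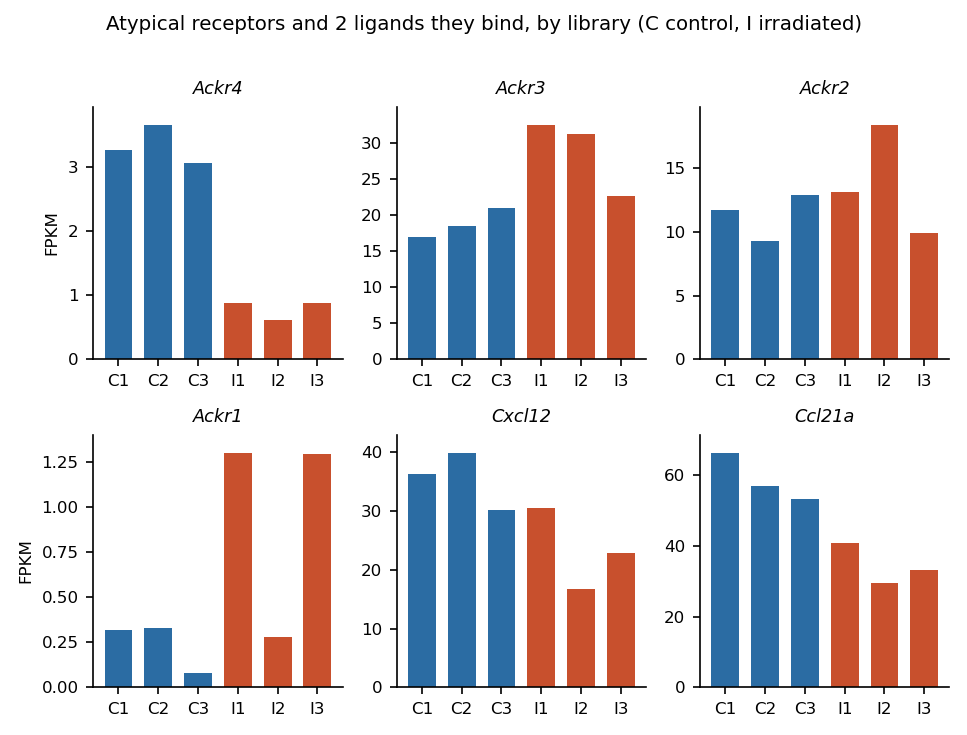
FPKM of the atypical receptors Ackr4, Ackr3, Ackr2 and Ackr1 and of the ligands Cxcl12 and Ccl21a in each library (C1 to C3 control, I1 to I3 irradiated, 1 bar per library, axes from 0). Ackr4 and Ccl21a are lower in all 3 irradiated libraries, Ackr3 is higher in all 3, and Ackr1 is high in I1 and I3.

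Around the ligands and receptors, 4 lists of genes were examined. Of 7 platelet chemokines and chemokine-like genes, none passed and 5 had negative changes, with a median of −0.48. Ccrl2, a chemerin-binding relative of the atypical receptors, was at 14.7, 14.9 and 16.96 FPKM against 10.9, 10.5 and 11.1 FPKM (−0.48 ± 0.09, adjusted p = 0.0793), and Rarres2, chemerin itself, at 106, 158 and 145 FPKM against 94.9, 70.9 and 75.0 FPKM (−0.75 ± 0.18, adjusted p = 0.123). Pf4, the platelet chemokine also called Cxcl4, was at 22.1, 38.9 and 37.3 FPKM against 12.7, 14.3 and 25.0 FPKM (−0.90 ± 0.31), and Gpr182, an endothelial chemokine scavenger, had group means of 24.1 and 17.4 FPKM (−0.45 ± 0.16). In Ccrl2 and Rarres2 the irradiated libraries all lay below the controls, while in Pf4 irradiated 3 and in Gpr182 irradiated 3 lay within their range. Summed platelet markers were at 34.3 to 53.1 FPKM in the controls and at 8.85 to 36.7 FPKM in the irradiated libraries, and their part in the level of Pf4 was not tested.

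Of 29 tested signalling genes below the receptors none passed, 20 had positive changes and the median was 0.16. The smallest p-values were those of Pik3r5, a subunit of the PI3 kinase that G proteins activate (0.81 ± 0.16, adjusted p = 0.0881), Vav1 (0.73 ± 0.17), Pik3cg (0.55 ± 0.14) and Dock2 (0.58 ± 0.15), all of them genes of leukocyte migration and all higher in every irradiated library. Of 10 genes of chemokine cleavage and presentation Dpp4 passed. This surface peptidase, which trims Cxcl12 and Cxcl10, fell from 24.5, 24.4 and 25.5 FPKM to 15.9, 14.2 and 14.5 FPKM (−0.70 ± 0.08, limma adjusted p = 0.0447). Hs6st1 (0.30 ± 0.09), Sdc4 (−0.43 ± 0.13) and Ndst1 (−0.35 ± 0.11), which make or carry heparan sulfate, came next by p and did not pass. Of 12 tested adhesion genes none passed and 10 had positive changes, with a median of 0.45. Itgb2 and Itgam, the chains of the integrin Mac-1 of neutrophils and macrophages, had changes of 0.61 ± 0.14 and 1.31 ± 0.41, Itga4 one of 0.47 ± 0.17, and Selp, the P-selectin of venules and platelets, one of 0.67 ± 0.24.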

How the data were processed

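The 6 lung libraries were grouped by their titles. The labels' protocols describe polyA mRNA libraries from TRIzol RNA, read on a DNBSEQ-T7. As names without role or order, the submitters' processing notes list the tools fastp, STAR (2.7.6a) and DESeq2, and GRCm39 as build. For the program that made the tables, their annotation and strand setting, the sources used here state nothing. The deposited tables hold, per the file headers, FPKM and coverage (signal per base) for each gene. The ratio of coverage to FPKM gave the aligned bases per library. A TPM column was not used, since it summed to 1979660 to 1991338 per library. Rows without a gene name were left out, and FPKM were summed by symbol. No counts are at hand, so no counting interval is given, and low values are less precise in shallower libraries.

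limma 3.58.1 in R 4.3.3 (trend and robust estimates) was fitted to log2(FPKM + 1) for genes averaging 1 FPKM or more, with group as the term and Benjamini-Hochberg adjustment over all of them. With 3 against 3 libraries an exact two-sided permutation test cannot go below p = 0.1, so genes whose groups do not overlap were counted beside the share over all genes. In each of 20 simulations of this comparison on 13908 genes, 200 genes were changed, all with a mean log2(FPKM + 1) above 2. Of those changed by 1.5-fold, 2-fold and 4-fold, 25.4%, 63.4% and 90.8% were recovered, and 4.63% of calls were false. Genes below that level, Ackr4 among them, were not changed, so the simulations do not give their recovery. Alternatives were other filters, pseudocounts, scalings and variance estimates, a replicate block and leaving out each library. Marker sums without their most abundant genes, and the ratio of Ccl20 without each library, were added after seeing the data. The genes, roles and lists were chosen with earlier results of these data known. By rule, every gene averaging 1 FPKM was named, lower ones with each library's value where a group mean reached 0.1 FPKM, and up to 4 genes by p per surrounding list. Of these, 1 item is not reported here and stays in the counts and medians. Promoters came from a RefSeq table (GRCm38.p6), and gene coordinates are those of the files (GRCm39).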

Additional observations from a re-analysis of the deposited data

How the results depend on the processing

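All values rest on 3 libraries per group, and leaving out 1 library changed the calls. Over all genes, 25 passed with all libraries (9 higher, 16 lower). Without 1 library in turn between 0 and 118 passed: 0 without control 1 or control 3 (with 1910 and 1645 at an unadjusted limma p under 0.05, against 2466), 1 without control 2, 101 without irradiated 1, 3 without irradiated 2 and 118 without irradiated 3. Among the chemokine and receptor genes the count was 1 with all libraries and between 0 and 2 without 1 library: Ackr4 with Ccr2 (log2 change 0.84, adjusted p = 0.0443) without irradiated 1, Ackr4 with Ccl9 (1.00, adjusted p = 0.0324) without irradiated 3, Cxcl13 (2.18, adjusted p = 0.0436) in place of Ackr4 without irradiated 2, and none without any 1 control (Ackr4 between −1.31 and −1.22).

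With other settings, 13 genes passed at a mean of at least 0.1 FPKM, 38 at 5 FPKM, where Ackr4 is not tested and 0 chemokine or receptor genes passed, 13 with a common sum (7 higher, 6 lower, which moves the median of all genes from −0.03 to 0.08) and 11 with median-ratio scaling. With the replicate block 0 genes passed (1623 at an unadjusted p under 0.05), 0 of them chemokine or receptor genes, and Ackr4 kept −1.27 (adjusted p = 0.282); same-numbered libraries deviated in opposite directions (correlations −0.17, −0.54 and −0.28), so the numbers give no pairing. Ackr4 was called in 7 of the 12 alternatives that test it, with adjusted p from 0.0262 to 0.282.

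The count of these genes above all controls ran from 8 to 16 without 1 library and of those below from 5 to 9; with a common sum 3 lay below, against 5. At 5 FPKM the medians by target cell rested on fewer genes. For lymphocyte and dendritic cell ligands the median went from 0.06 to −0.16 (5 genes). For monocyte and macrophage ligands it went from −0.19 to 0.79 (3 genes), and for their receptors from 0.45 to 1.06 (2 genes). For neutrophil ligands it went from 0.35 to −0.39 (1 gene, Cxcl15). Monocyte and macrophage receptors had 0.56 with a common sum, and neutrophil ligands 0.04 to 0.43 without 1 library.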
